A study of Mus musculus with 9 samples.

Results

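The genes described here are the components of the Wnt pathway: its ligands, the proteins that lipidate, secrete or remove them, the Frizzled receptors with their co-receptors, the secreted inhibitors, the cytoplasmic proteins that carry the signal to beta-catenin, and the transcription factors that act with beta-catenin. They were chosen by gene name alone, as every Wnt, Fzd, Sfrp, Dkk, Tcf7 and Dvl gene plus 18 named pathway genes. RefSeq holds 61 mouse genes of this description, and 52 of them were among the 14108 genes counted. The other 9 (*Dkk1*, *Dkk4*, *Sfrp4*, *Wnt3*, *Wnt3a*, *Wnt8a*, *Wnt8b*, *Wnt9b* and *Wnt16*) were not analysed here. All 52 passed the filter on low counts and were tested.

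Wnt proteins are secreted glycoproteins that need a lipid, added by Porcn, and the carrier Wls to leave the cell. When a Wnt binds a Frizzled receptor together with Lrp5 or Lrp6, the complex of Axin, Apc and Gsk3b that marks beta-catenin for destruction is held off by the Dishevelled proteins, and beta-catenin reaches the nucleus and acts there with the Tcf and Lef factors. Several of the genes it induces in many tissues, among them *Axin2*, *Nkd1*, *Notum*, *Rnf43* and *Znrf3*, encode proteins that restrain the pathway. In the mammary gland Wnt4 drives side branching of the ducts downstream of progesterone, and *Wnt1* is a classical site of retroviral insertion in mouse mammary tumours.

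Expression was measured by RNA-seq of sorted GFP-positive cells from 9 mammary tumours, 3 of each of the models HR1, LM1 and LM9. HR1 is a non-metastatic mouse line derived from 1 mammary tumour of a transgenic animal that expressed mutant *PIK3CA* (H1047R) under the CAG promoter. LM1 and LM9 are lines that grew out of lung metastases of NOD/SCID mice bearing HR1 cells with a doxycycline-inducible *piggyBac* transposon, so all 3 models carry the *PIK3CA* mutation and the LM models also carry transposon insertions. For the tumours, 250000 cells were injected into the mammary fat pad of female NOD/SCID mice aged 4 to 8 weeks and the tumours were removed before they reached 1500 mm3; each model is a single line, so the class of a model and its line cannot be told apart. The study treats HR1 as a low-expression and LM1 and LM9 as high-expression models of the transcription factor *Nfib*, and the comparisons ask what differs between the 6 LM tumours and the 3 HR1 tumours and between LM9 and LM1.

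The level of *Nfib* did not follow these labels in 1 library. In CPM, the counts of a gene scaled to 1e6 counts of the library size times its TMM factor, *Nfib* was at 1343 in the library labelled HR1 replicate 1, 23.9 and 18.3 in the other HR1 tumours, and between 421 and 791 in the LM tumours. Across all genes the correlation of log2 CPM within a model was 0.878 to 0.961 in HR1, 0.986 to 0.991 in LM1 and 0.990 to 0.991 in LM9. Comparisons with HR1 are therefore given with all tumours and, for most of the genes called against HR1, again without the library labelled HR1 replicate 1. Total counts per tumour ranged from 32393958 to 46681945, so that 3 counts, taken as the floor, corresponded to at most 0.0997 CPM.

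The GFP sort was checked against marker genes. Of 12 epithelial markers, 7 were analysed, with a summed level of 7.78 to 121.5 CPM in HR1, 158 to 182 in LM1 and 15.1 to 18.9 in LM9, with *Krt14* alone at 1.56 to 109, 152 to 175 and 12.2 to 15.4; *Epcam* never exceeded 4.49 CPM. The 11 mesenchymal and fibroblast markers summed to 31250 to 42600 CPM in HR1, against 19090 to 21340 in LM1 and 19470 to 21400 in LM9, and *Vim* lay between 7344 and 12289. Of the 11, 9 fell and 0 rose in LM against HR1, where 23.6% of all genes fell and 19.9% rose. The 10 leukocyte markers summed to 224 to 949 CPM in HR1, 191 to 207 in LM1 and 198 to 241 in LM9. Of these 10, 7 fell and 0 rose in LM against HR1, beside the same shares of all genes. *Cd68* was at 15.9 to 17.9 CPM in LM1 and 107 to 138 in LM9 while *C1qa* was at 34.7 to 41.9 and 6.73 to 13.2. The 7 endothelial markers analysed of 8 summed to 5.94 to 28.9 CPM in HR1, 164 to 227 in LM1 and 252 to 291 in LM9, carried in the LM tumours by *Cdh5* and *Kdr*, the 2 that rose in LM against HR1, while the other 5, *Pecam1* among them at or under 1.25, fell. Over all genes 19.9% rose and 23.6% fell in that comparison. *Krt5* and *Tie1* were at 0 in at least 1 LM9 tumour, and of 5 adipocyte markers only *Fabp4* was analysed, at 0.383 to 8.78 CPM. The part of other cell types in the results below was not tested, and in such samples fewer cells of a type and less RNA per cell cannot be told apart.

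TCF and LEF factors bind a core that reads CTTTGAT or CTTTGAA. RefSeq start sites gave 45 promoter windows, from 250 bases before to 50 after the start, for 35 of the 52 genes. The core, searched on both strands, occurred in 3 of the 45 windows (6.67%) against 8.65% of all 32851 windows. The NFI palindrome, a pair of facing sites, was in none of the 45 and in 12 of all windows (0.0365%). The 3 matching windows belong to the factor gene *Sp5* and the ligand genes *Wnt5b* and *Wnt11*, all of which moved in at least 1 comparison below. They are shown because they hold the only TCF/LEF matches in the set; the sequences are from GRCm38.p6, lie upstream of the start site, run 5′ to 3′ on the strand of the gene, and have the core in capitals.
Sp5: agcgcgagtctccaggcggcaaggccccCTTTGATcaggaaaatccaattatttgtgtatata
Wnt5b: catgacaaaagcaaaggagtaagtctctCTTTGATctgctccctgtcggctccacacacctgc
Wnt11: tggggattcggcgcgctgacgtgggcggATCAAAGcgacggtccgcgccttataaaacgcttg
The *Sp5* stretch is chr2:70474791-70474853 on the plus strand and covers positions -132 to -70 from the start site. The *Wnt5b* stretch is chr6:119449423-119449485 on the minus strand, positions -99 to -37. The *Wnt11* stretch is chr7:98835033-98835095 on the plus strand, positions -79 to -17, with the core on the opposite strand. A match describes the letters only and is not a measured binding site.

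Against HR1, 22 of the 52 pathway genes differed in the LM tumours at an adjusted p under 0.05, 9 higher (19.9% of all genes were) and 13 lower, in the quasi-likelihood F-test of edgeR with Benjamini-Hochberg adjustment over all 14086 genes tested. That is 42.3% of them, beside 43.6% of all genes. Their median log2 fold change was -0.205, beside -0.0458 over all genes; without the library labelled HR1 replicate 1 it was 0.0972, beside -0.00165, so its sign rested on that library. For LM1 alone 16 differed (9 higher, 7 lower; 35.5% of all genes did), and for LM9 alone 23 (9 higher, 14 lower; 42.3% of all genes, 20.4% higher). With all tumours the share of pathway genes that changed was thus close to that of the transcriptome, and no more is read from these counts. Without the library labelled HR1 replicate 1 the LM comparison gave 37 genes (71.2%, beside 56.0% of all genes), 20 higher and 17 lower (27.5% and 28.5% of all genes). That of LM1 then gave 33 (63.5%, beside 52.8%), 21 higher and 12 lower (26.9% and 26.0% of all genes), and that of LM9 31 (59.6%, beside 55.7%), 15 higher and 16 lower (27.9% and 27.8% of all genes).

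**Figure D1:**
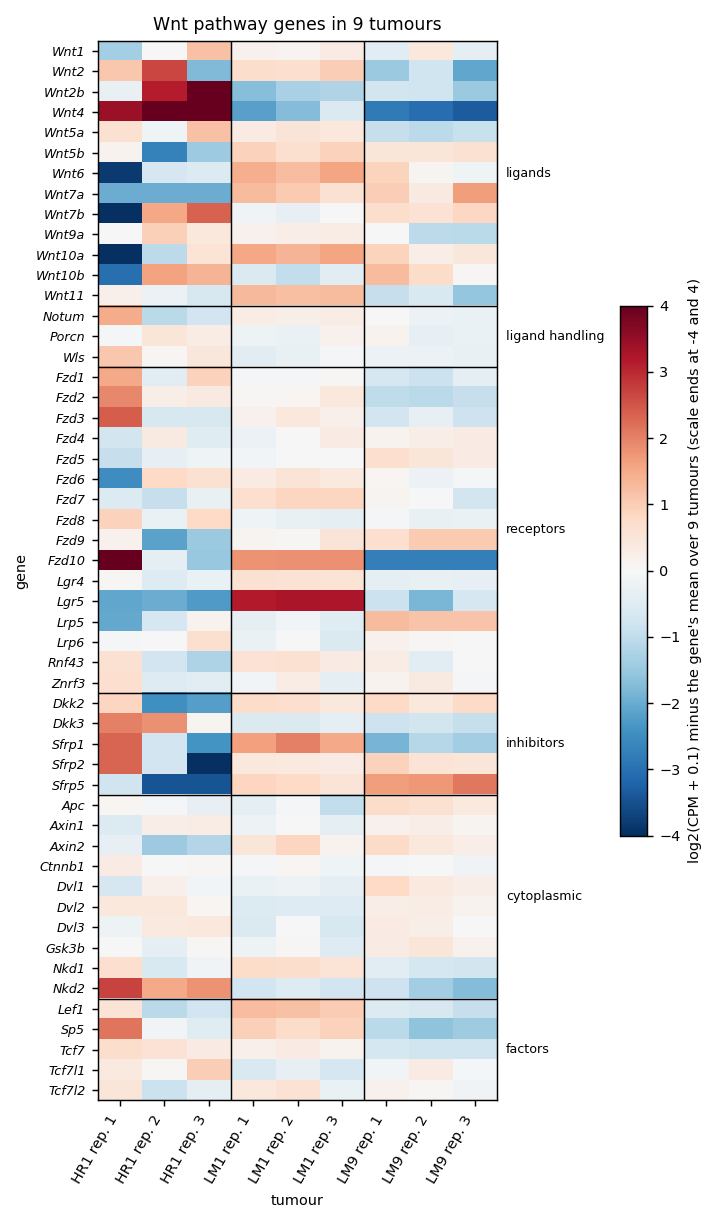
Level of the 52 Wnt pathway genes in each of the 9 tumours, as log2(CPM + 0.1) minus the mean of the gene over the 9 tumours (colour, with the scale ended at -4 and 4), grouped by role. The first column, the library labelled HR1 replicate 1, differs from the other 2 HR1 columns in many genes, whereas the 3 columns of each LM model look alike.

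The library labelled HR1 replicate 1 was more than 2-fold away from both other HR1 tumours, in CPM plus 0.1, for 23 of the 52 genes, 14 higher and 9 lower. Over all genes that share was 21.6%, with 10.1% higher. Among the 14 were the feedback genes *Notum*, *Rnf43*, *Znrf3*, *Lef1* and *Sp5* and the secreted inhibitors *Dkk2*, *Sfrp1*, *Sfrp2* and *Sfrp5*. Among the 9 were the ligands *Wnt1*, *Wnt2b*, *Wnt4*, *Wnt6*, *Wnt7b*, *Wnt10a* and *Wnt10b*.

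Of the 13 ligands, 6 differed between LM and HR1, 3 lower (*Wnt2b*, *Wnt4*, *Wnt5a*) and 3 higher (*Wnt5b*, *Wnt6*, *Wnt7a*). That is 46.2%, beside 43.6% of all genes, and without the library labelled HR1 replicate 1 it was 11 (84.6%, beside 56.0%), 7 lower and 4 higher. With all tumours, the LM comparison gave its largest fitted change of the 52 genes for *Wnt4*; without the library labelled HR1 replicate 1 that of *Sfrp5*, which then had no HR1 count, was larger. It was at 11.0, 41.4 and 29.7 CPM in the HR1 tumours, at 0.126, 0.204 and 0.584 in LM1, and at 0.0429, 0.0229 and 0 in LM9. Every LM tumour lay far below every HR1 tumour, the library labelled HR1 replicate 1 included. *Wnt4* had a log2 fold change in LM of -8.29 ± 0.65 (SE; adjusted p = 6.43e-05), and -8.68 ± 0.43 without that library (adjusted p = 6.82e-07). The 3 LM9 libraries held 3 *Wnt4* counts in all against 3328 in HR1, a ratio of 1320-fold lower with a 95% counting interval of 451 to 6400, and in LM1 its log2 fold change was -6.5 (adjusted p = 0.000574).

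*Wnt2b*, a ligand of the canonical branch, was at 0.332, 4.53 and 10.6 CPM in HR1, 0.063, 0.113 and 0.127 in LM1, and 0.215, 0.206 and 0.090 in LM9. The lowest HR1 value, that of replicate 1, was close to the LM tumours but above them. *Wnt2b* fell in LM, with a log2 fold change of -5.27 ± 0.83 (adjusted p = 0.00139), or -5.82 ± 0.40 without that library (adjusted p = 3.67e-06). Over the 9 fits that each left out 1 tumour its log2 fold change ran from -5.82 to -4.20.

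*Wnt5a*, best known for beta-catenin-independent signalling, was among the most abundant ligands. Its CPM was 323, 188 and 480.2 in HR1, 269, 307 and 285 in LM1, and 112, 103 and 115 in LM9. The LM1 values lay within the HR1 range and the LM9 values below it. In LM9 it fell, at -1.58 ± 0.29 on the log2 scale against HR1 (adjusted p = 0.00322) and -1.38 ± 0.29 against LM1 (adjusted p = 0.0121), while the LM1 value against HR1 was -0.20 ± 0.28 (adjusted p = 0.603). Without the library labelled HR1 replicate 1 the LM9 value was -1.60 and the LM value -0.91 (adjusted p = 0.00229 and 0.0173). The change in LM as a whole, -0.89 ± 0.24 with all tumours (adjusted p = 0.0154), was -0.52 with an adjusted p of 0.0553 when HR1 replicate 3 was left out, and the LM9 against LM1 call had an adjusted p of 0.0521 without LM9 replicate 1.

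*Wnt5b*, a close relative of *Wnt5a*, was at 30.0, 4.05 and 9.80 CPM in HR1, at 51.5, 42.0 and 51.7 in LM1, and at 37.7, 38.1 and 41.5 in LM9. All 6 LM tumours lay above all 3 HR1 tumours. It rose by 1.58 ± 0.53 in LM (adjusted p = 0.0388) and by 2.66 ± 0.31 without the library labelled HR1 replicate 1 (adjusted p = 9.89e-05). Leaving out HR1 replicate 3 or any 1 of the 6 LM tumours gave an adjusted p between 0.0633 and 0.109. By model, with all tumours, LM1 passed (1.73, adjusted p = 0.0456) and LM9 did not (1.43, adjusted p = 0.0753). Without the library labelled HR1 replicate 1 both passed, LM1 at 2.82 and LM9 at 2.5 (adjusted p = 0.000198 for LM9). The LM1 call was lost without HR1 replicate 3 or any 1 of the 6 LM tumours (adjusted p of 0.0676 to 0.111).

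*Wnt6* was at 0.499, 5.25 and 5.82 CPM in HR1, 23.4, 20.1 and 25.5 in LM1, and 15.7, 9.09 and 7.45 in LM9, again with no overlap. It rose by 2.02 ± 0.64 in LM (adjusted p = 0.0325) and by 1.51 ± 0.28 without the library labelled HR1 replicate 1 (adjusted p = 0.00146). Leaving out HR1 replicate 2, LM9 replicate 1 or 2 or any LM1 tumour gave an adjusted p of 0.0510 to 0.0659. By model, with all tumours, LM1 passed (2.57, adjusted p = 0.0222) and LM9 did not (1.47, adjusted p = 0.114). Without the library labelled HR1 replicate 1 LM9 passed too (0.964, adjusted p = 0.0201). The LM1 call was lost without any 1 LM1 tumour (adjusted p of 0.0521 to 0.0587). *Wnt7a*, which was named after its values were seen, had no count in any HR1 tumour and 0.412 to 1.17 CPM in the LM tumours, at least 8.92-fold higher when HR1 is set to 3 counts per library (adjusted p = 0.00108, and 0.000524 without the library labelled HR1 replicate 1).

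*Wnt11*, another ligand linked to beta-catenin-independent signalling and one of the 3 genes with a TCF/LEF match, rose in LM1 and fell in LM9. It was at 20.2, 14.7 and 11.1 CPM in HR1, 43.4, 40.1 and 42.3 in LM1, and 9.17, 11.4 and 5.85 in LM9. The LM1 tumours lay above every HR1 tumour, and the LM9 range overlapped HR1 at 11.4. *Wnt11* rose by 1.45 ± 0.28 in LM1 (adjusted p = 0.00496; 1.71 without the library labelled HR1 replicate 1). In LM9 it fell, at -0.80 ± 0.28 (adjusted p = 0.0459), and leaving out that library, HR1 replicate 2, LM9 replicate 1 or 3 or any LM1 tumour gave an adjusted p of 0.0683 to 0.133. LM9 against LM1 gave -2.25 ± 0.29 (adjusted p = 0.00194).

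*Wnt7b* and *Wnt10a* were looked at further after their levels were seen, because they took the largest shares of the ligand transcripts in several tumours. *Wnt7b* was at 1.20, 176 and 306 CPM in HR1, 54.8, 47.7 and 60.3 in LM1, and 96.9, 90.6 and 106 in LM9. It was near absent from the library labelled HR1 replicate 1 and otherwise higher in HR1 than in any LM tumour. The LM value was -1.14 ± 0.95 (adjusted p = 0.357) with all tumours and -1.72 ± 0.17 (adjusted p = 3.78e-05) without that library. *Wnt10a* was at 0.898, 22.6 and 69.7 CPM in HR1, 138, 120.3 and 141 in LM1, and 88.0, 56.4 and 64.7 in LM9, with a log2 fold change of 1.63 ± 0.90 (adjusted p = 0.174), or 1.07 ± 0.38 (adjusted p = 0.0395) without that library and 3.02 (adjusted p = 0.0374) without HR1 replicate 3.

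To compare ligands with each other, CPM was divided by the exon length of each gene in kilobases. On this scale *Wnt5a* made up 53.4% of the ligand level in the library labelled HR1 replicate 1, *Wnt7b* 29.3% and 32.3% in HR1 replicates 2 and 3, and *Wnt10a* 32.1% to 34.9% in LM1 and 26.8% to 32.3% in LM9. The summed ligand level was 77.2, 123 and 193.5 CPM per kilobase in the HR1 tumours, 152 to 167.5 in LM1, and 85.2 to 110.3 in LM9. The HR1 sums spanned those of both LM models. *Wnt1*, *Wnt2*, *Wnt2b*, *Wnt7a* and *Wnt10b* stayed under 5 CPM per kilobase in every tumour, and of the ligands not yet named *Wnt9a* and *Wnt2* fell in LM9 against HR1, with log2 fold changes of -1.16 and -3.14 (adjusted p = 0.0198 and 0.0304), or -1.35 and -3.33 without the library labelled HR1 replicate 1 (adjusted p = 0.00538 and 0.0218). The *Wnt9a* call was lost without HR1 replicate 2 or LM9 replicate 2 or 3 (adjusted p of 0.0601 to 0.0712). That of *Wnt2* was lost without HR1 replicate 2, where its value was -1.80, or any 1 LM9 tumour (adjusted p of 0.057 to 0.113).

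**Figure D2:**
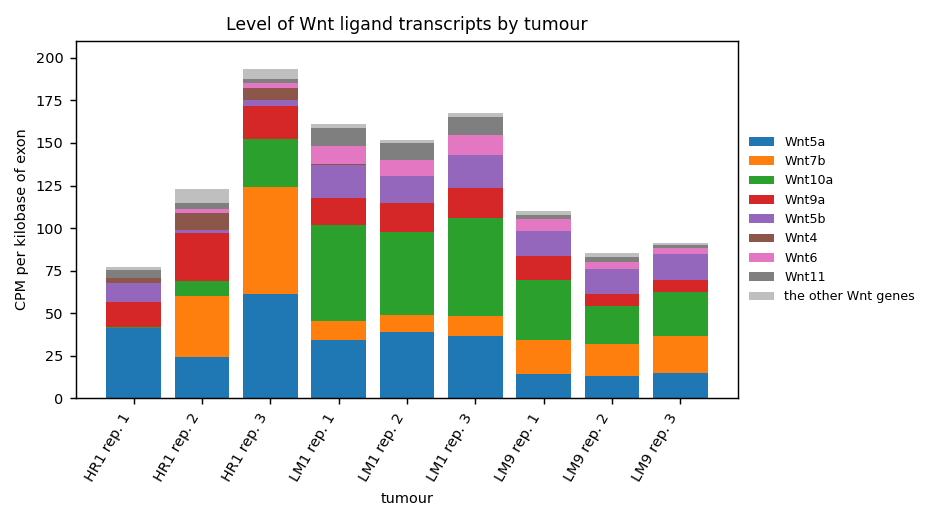
Level of Wnt ligand transcripts per tumour in CPM per kilobase of exon, stacked by gene, with the ligands of lowest level summed in grey. The library labelled HR1 replicate 1 is mostly *Wnt5a*, the other HR1 tumours have the tallest *Wnt7b* and *Wnt4* bands, and *Wnt10a* is the tallest band in each LM tumour, from 22.8 CPM per kilobase upwards.

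Among the genes that handle the ligands, *Wls*, the carrier of lipidated Wnt proteins, fell. It was at 608, 298 and 395 CPM in HR1, 215, 235 and 279 in LM1, and 245, 246 and 238 in LM9, with all LM tumours below all HR1 tumours. The log2 fold change was -0.84 ± 0.20 (adjusted p = 0.0103) in LM, and -0.51 ± 0.13 (adjusted p = 0.00951) without the library labelled HR1 replicate 1. *Porcn*, the enzyme that attaches the lipid, was at 30.8 to 43.9 CPM in HR1, 26.2 to 35.8 in LM1 and 25.3 to 34.5 in LM9, and its value of -0.38 ± 0.17 did not pass the test (adjusted p = 0.107), though it did without that library (-0.50, adjusted p = 0.027).

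*Notum*, a secreted enzyme that strips the lipid from Wnt proteins, was the most abundant of the feedback genes in CPM. It was at 1509, 253 and 312 CPM in HR1, 654, 632 and 649.9 in LM1, and 542, 457 and 446 in LM9. The LM tumours lay between the library labelled HR1 replicate 1 and the other HR1 tumours. With all tumours the log2 fold change was -0.31 ± 0.50 (adjusted p = 0.643), and without that library it was 0.99 ± 0.13 (adjusted p = 0.000189), so both the sign and the call rested on 1 library. Exons on the opposite strand, of the antisense genes *Myadml2os* and *Notumos*, share 38.1% of the exon bases of *Notum*. The same holds for 6.61% to 18.3% of those of *Ctnnb1*, *Dvl2*, *Fzd5*, *Lef1*, *Sfrp2*, *Wnt7b* and *Wnt11*; the strand setting of the gene counts is not given in the sources used here, so reads of the partners may not be told apart.

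Of the 16 receptor genes, 8 differed between LM and HR1, *Fzd5*, *Fzd7*, *Fzd9* and *Lgr5* higher and *Fzd1*, *Fzd2*, *Fzd8* and *Fzd10* lower (50.0%, beside 43.6% of all genes). Without the library labelled HR1 replicate 1 there were 10 (62.5%, beside 56.0%), 8 higher and 2 lower. The calls of *Fzd1* (-1.20, adjusted p = 0.0185) and *Fzd8* (-0.84, adjusted p = 0.0315) were lost without the library labelled HR1 replicate 1, at -0.71 and -0.61 (adjusted p = 0.0584 and 0.0661). The *Fzd8* call was lost in 8 of the 9 fits that left out 1 tumour, all but that without HR1 replicate 2, and that of *Fzd5* (0.68, adjusted p = 0.0222; 0.49 without the library labelled HR1 replicate 1) in the fits without LM9 replicate 1 or 2 (adjusted p = 0.0502 and 0.0545). By model, with all tumours, *Fzd1*, *Fzd2*, *Fzd5*, *Fzd9* and *Fzd10* passed in LM9 only, *Fzd7* in LM1 only and *Fzd8* in neither. These differences in call are not tests between the models, and several rested on 1 tumour. Without the library labelled HR1 replicate 1 *Fzd9* passed in LM1 too (2.15, adjusted p = 0.000414), and *Fzd10* was higher there. Without HR1 replicate 2 *Fzd8* passed in LM1 and LM9 (-1.17 and -1.08, adjusted p = 0.00524 and 0.00626). In that fit *Fzd1* and *Fzd2* passed in LM1 (-1.29 and -1.14, adjusted p = 0.00379 and 0.0493). The LM9 call of *Fzd1* was lost without LM9 replicate 1 or 2 (adjusted p = 0.0629 and 0.0633). *Fzd2* was at 453, 141 and 155 CPM in HR1, 124, 128 and 161 in LM1, and 59.7, 56.7 and 63.6 in LM9. The LM9 tumours were below all others, whereas LM1 overlapped HR1. *Fzd2* fell in LM, with a log2 fold change of -1.46 ± 0.33 (adjusted p = 0.00835), which was -0.70 ± 0.12 without the library labelled HR1 replicate 1 (adjusted p = 0.000949) and -2.06 ± 0.42 in LM9 alone (adjusted p = 0.00526; -1.30 without that library).

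*Fzd7* went the other way. It was at 58.3, 45.0 and 69.8 CPM in HR1, 137, 155 and 155 in LM1, and 92.7, 85.5 and 51.3 in LM9, so LM1 stood above every other tumour and LM9 overlapped HR1. It rose by 0.89 ± 0.21 in LM (adjusted p = 0.0102; 0.90 without the library labelled HR1 replicate 1), by 1.37 ± 0.24 in LM1 (adjusted p = 0.0033), and was at 0.41 ± 0.24 in LM9 (adjusted p = 0.195; 0.63 with an adjusted p of 0.0479 without LM9 replicate 3). In LM9 it was lower than in LM1, at -0.96 ± 0.24 (adjusted p = 0.0231), with an adjusted p of 0.0532 to 0.0771 when LM9 replicate 2 or 3 or any LM1 tumour was left out.

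*Fzd9* and *Fzd10* were low and their calls were less stable. *Fzd9* was at 4.26, 0.765 and 1.26 CPM in HR1, 4.07, 3.87 and 5.44 in LM1, and 6.05, 7.83 and 7.90 in LM9. *Fzd9* rose by 1.45 ± 0.52 in LM (adjusted p = 0.0478) and by 2.50 ± 0.30 without the library labelled HR1 replicate 1 (adjusted p = 0.000117), but leaving out any 1 of the other 8 tumours gave an adjusted p of 0.0716 to 0.125. The LM9 call (1.8, adjusted p = 0.0326) was lost in the same 8 fits (adjusted p of 0.05 to 0.0829). *Fzd10* was at 16.1 CPM in the library labelled HR1 replicate 1, 0.405 and 0.129 in the other HR1 tumours, 2.21 to 2.26 in LM1, and 0 in all LM9 tumours. The LM call (-6.09, adjusted p = 0.0281) was lost without that library (-1.76, adjusted p = 0.0675). It was also lost without any 1 LM1 tumour and without LM9 replicate 1 (adjusted p of 0.05 to 0.0651). In LM1 alone the value turned from -1.31 (adjusted p = 0.533) to 3.04 (adjusted p = 0.00299) without HR1 replicate 1. The LM9 call was lost without any 1 LM9 tumour (adjusted p of 0.0515 to 0.0552). With LM9 set to 3 counts per library HR1 was at least 83.1-fold higher on average, a mean set by replicate 1. Without HR1 replicate 1 the HR1 mean was 0.267 CPM, and 3 counts in LM9 were 0.0644 to 0.0687 CPM.

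Per kilobase of exon, the Frizzled level summed to 224, 85.1 and 123 CPM in the HR1 tumours, 104.5 to 122 in LM1 and 63.0 to 68.8 in LM9, so LM9 lay below every other tumour. *Fzd2* took 55.2% and 45.2% of it in HR1 replicates 1 and 2, and *Fzd1* 38.9% in replicate 3. In LM1, *Fzd2* led with 31.4% to 36.1%, followed by *Fzd7* with 28% to 30.7%. In LM9, *Fzd7* led in replicates 1 and 2 (29.8% and 30.0%) and *Fzd1* in replicate 3 (30.7%).

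*Lgr5* and *Lgr4* encode receptors of the R-spondins, and *Lgr5* marks stem cells in several epithelia. *Lgr5* was at 0.0997, 0.113 and 0.0772 CPM in HR1, 7.48, 8.04 and 7.93 in LM1, and 0.365, 0.137 and 0.428 in LM9. It was expressed above 1 CPM in LM1 and in no other tumour, and all LM9 values lay above all HR1 values at a very low level. The LM1 libraries held 1023 *Lgr5* counts against 11 in HR1, 80.4-fold higher with a 95% counting interval of 44.7 to 162. In the fit it rose by 6.29 ± 0.50 in LM1 (adjusted p = 0.000129) and by 1.65 ± 0.47 in LM9 (adjusted p = 0.0217; 0.0526 to 0.0766 without HR1 replicate 3 or LM9 replicate 1 or 3), and LM9 against LM1 gave -4.64 ± 0.45 (adjusted p = 0.000577). Without the library labelled HR1 replicate 1 the LM1 change was 6.32.

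*Lgr4* was likewise highest in LM1, with 18.4, 12.6 and 14.7 CPM in HR1, 27.1, 26.8 and 26.0 in LM1, and 14.0, 14.5 and 14.3 in LM9. Only LM1 stood apart. It rose in LM1 by 0.80 ± 0.16 (adjusted p = 0.00628; 0.97 without the library labelled HR1 replicate 1) and fell in LM9 against LM1, at -0.90 ± 0.16 (adjusted p = 0.00737), and its LM value of 0.35 passed the test only without that library (0.52, adjusted p = 0.00576).

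The co-receptor gene *Lrp5* was highest in LM9. Its CPM was 29.9, 77.4 and 135 in HR1, 93.6, 114 and 88.7 in LM1, and 298, 271 and 273 in LM9. The LM9 tumours were above all others, and LM1 lay within the HR1 range. *Lrp5* rose in LM9 by 1.79 ± 0.44 against HR1 (adjusted p = 0.0121; 1.40 without the library labelled HR1 replicate 1) and by 1.5 ± 0.44 against LM1 (adjusted p = 0.0394), the latter with an adjusted p of 0.0788 to 0.131 without any 1 of the 6 LM tumours. *Lrp6* was at 42.1 to 67.7 CPM in HR1, 29.0 to 43.2 in LM1 and 43.9 to 48.3 in LM9, with a log2 fold change of -0.33 ± 0.19 (adjusted p = 0.181).

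*Rnf43* and *Znrf3*, related ubiquitin ligases that remove Frizzled receptors from the cell surface, both depended on 1 library. *Rnf43* was at 31.8, 12.2 and 8.77 CPM in HR1, 31.1, 32.3 and 26.1 in LM1, and 25.9, 15.7 and 21.4 in LM9, with a log2 fold change of 0.51 ± 0.38 (adjusted p = 0.302) that became 1.26 ± 0.22 (adjusted p = 0.00095) without the library labelled HR1 replicate 1. *Znrf3* was at 21.3, 9.21 and 9.91 CPM in HR1, 12.3, 16.2 and 10.4 in LM1, and 14.8, 17.2 and 12.8 in LM9. Its log2 fold change was 0.05 ± 0.29 (adjusted p = 0.91), or 0.55 ± 0.20 (adjusted p = 0.0388) without that library.

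Of the 5 secreted inhibitors, *Dkk3* fell and *Sfrp5* rose, 40.0% beside 43.6% of all genes. Without the library labelled HR1 replicate 1 all 5 were called, 4 higher and 1 lower, beside 56.0% of all genes. *Dkk3*, a divergent member of the Dickkopf family, was at 24.7, 21.6 and 6.41 CPM in HR1, 3.99, 4.01 and 4.67 in LM1, and 3.28, 3.57 and 3.11 in LM9. Every LM tumour lay below every HR1 tumour. *Dkk3* had a log2 fold change of -2.23 ± 0.35 (adjusted p = 0.00139), or -1.90 ± 0.34 without the library labelled HR1 replicate 1 (adjusted p = 0.00113).

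*Sfrp5*, a secreted Frizzled-related protein that binds Wnt ligands, was at 0.532, 0 and 0 CPM in HR1, 1.87, 1.79 and 1.45 in LM1, and 3.37, 3.55 and 4.66 in LM9. It was lowest in all 3 HR1 tumours, with counts in the library labelled HR1 replicate 1 only. It rose by 3.95 ± 1.14 in LM (adjusted p = 0.0218), with an adjusted p of 1.03e-05 without that library; with all tumours LM9 passed (adjusted p = 0.0172) and LM1 did not (adjusted p = 0.0535). *Dkk2*, *Sfrp2* and *Sfrp1* were added after their values were seen, since replicate 1 decided them. *Dkk2* was at 179, 18.1 and 21.4 CPM in HR1 and 133 to 173 in the 6 LM tumours, so that the library labelled HR1 replicate 1 stood with the LM tumours. The log2 fold change was 1.10 ± 0.69 (adjusted p = 0.222) with it and 2.99 ± 0.17 (adjusted p = 1.09e-06) without it. *Sfrp2* was at 1517, 178 and 12.1 CPM in HR1 and 379 to 576 in the LM tumours, with values of -0.38 ± 0.97 (adjusted p = 0.775) and 2.20 ± 0.80 (adjusted p = 0.0451). *Sfrp1*, of the same family, was at 8.08, 0.856 and 0.206 CPM in HR1, 4.98, 6.48 and 4.57 in LM1, and 0.343, 0.641 and 0.518 in LM9, and its LM value went from -0.89 (adjusted p = 0.427) to 1.61 (adjusted p = 0.0199) without that library.

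In the cytoplasm, the gene of beta-catenin itself had overlapping levels in the 3 models. *Ctnnb1* was at 403, 319 and 329 CPM in HR1, 304, 338 and 287 in LM1, and 313, 329 and 290.4 in LM9. The log2 fold change was -0.17 ± 0.12 (adjusted p = 0.267), and -0.06 ± 0.11 without the library labelled HR1 replicate 1. *Apc*, a scaffold of the destruction complex, was at 24.0, 22.0 and 18.2 CPM in HR1, 17.3, 21.3 and 11.4 in LM1, and 38.2, 34.4 and 30.0 in LM9. The LM9 tumours were above all others; *Apc* rose in LM9 by 1.04 ± 0.24 against LM1 (adjusted p = 0.017), with an adjusted p of 0.0631 to 0.0711 without LM1 replicate 1 or LM9 replicate 1 or 2.

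*Axin2*, the scaffold gene most widely used as a readout of beta-catenin activity, was higher in both LM models. It was at 224, 103 and 126 CPM in HR1, 396, 514 and 309 in LM1, and 475, 376 and 342 in LM9. The lowest LM tumour was above the highest HR1 tumour, which was the library labelled HR1 replicate 1. *Axin2* rose by 1.41 ± 0.28 in LM (adjusted p = 0.00436), by 1.82 ± 0.22 without that library (adjusted p = 0.000115), and by 1.43 ± 0.31 in LM1 and 1.40 ± 0.31 in LM9 alone (adjusted p = 0.00825 and 0.00786). LM9 and LM1 differed by -0.03 ± 0.31 (adjusted p = 0.953). In the exact two-sided permutation test of CPM, 6 LM against 3 HR1 tumours gave p = 0.0238, the smallest that such groups allow. The same p was found for each of the 13 pathway genes without overlap between LM and HR1, 7 higher and 6 lower, beside 29.9% of all genes. For LM1 against HR1 20 genes had no overlap (45.6% of all genes), and for LM9 23 (53.3%); an exact permutation test of 3 against 3 tumours cannot give a p under 0.1.

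*Nkd2* and *Nkd1* encode related inhibitors that bind Dishevelled, and their values differed. *Nkd2* was at 492, 213 and 263 CPM in HR1, 44.0, 52.4 and 44.3 in LM1, and 42.1, 28.6 and 22.7 in LM9. The highest LM tumour was well below the lowest HR1 tumour. Its log2 fold change was -3.08 ± 0.27 in LM (adjusted p = 0.000111), -2.63 ± 0.19 without the library labelled HR1 replicate 1 (adjusted p = 5.56e-06), -2.78 in LM1 and -3.37 in LM9. *Nkd1* was at 416, 170.0 and 238 CPM in HR1, 434, 426 and 379 in LM1, and 196, 159.9 and 158 in LM9, so that LM1 was above LM9 and HR1 reached over most of that range. Its LM value was -0.05 ± 0.25 (adjusted p = 0.895), or 0.39 ± 0.15 without that library (adjusted p = 0.0518), while LM9 against LM1 gave -1.27 ± 0.29 (adjusted p = 0.0173; 0.0502 to 0.0691 without LM1 replicate 1 or 3 or any LM9 tumour). For LM1 alone it was 0.588 (adjusted p = 0.141), or 1.02 without the library labelled HR1 replicate 1 (adjusted p = 0.000869). For LM9 alone it was -0.68 (adjusted p = 0.0862), or -0.932 without HR1 replicate 2 (adjusted p = 0.0171).

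The remaining cytoplasmic genes were named after their values were seen. *Dvl2* fell in LM, at -0.45 on the log2 scale (adjusted p = 0.0128; -0.39 without the library labelled HR1 replicate 1). For LM1 its value was -0.83 (adjusted p = 0.00231) and for LM9 -0.08 (adjusted p = 0.679), and LM9 exceeded LM1 by 0.76 (adjusted p = 0.00693). *Dvl1* rose in LM9 by 0.79 against LM1 (adjusted p = 0.0383), a call lost without any 1 of the 6 LM tumours (adjusted p of 0.066 to 0.146). *Axin1*, *Dvl3* and *Gsk3b* passed the test in none of the 4 comparisons with all tumours.

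**Figure D3:**
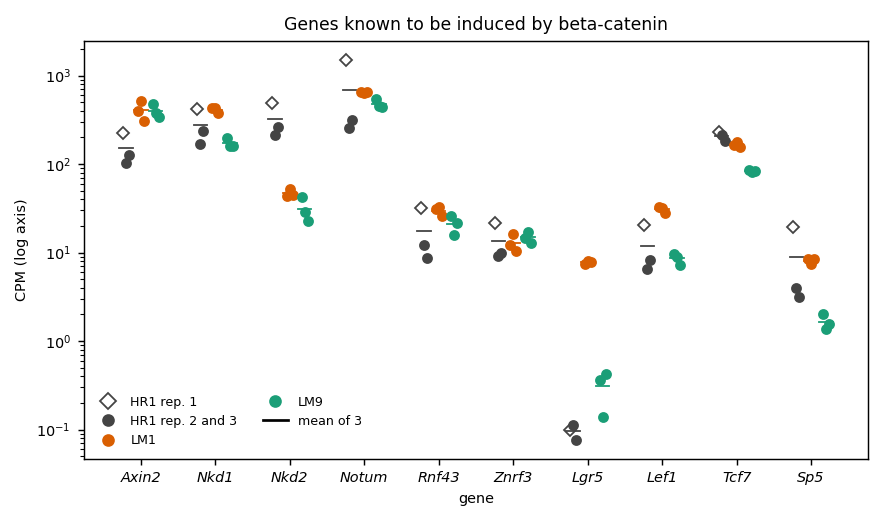
CPM on a log axis of 10 genes known to be induced by beta-catenin in many tissues, with 1 point per tumour and a bar at the mean of the 3 tumours of a model. *Axin2* is higher and *Nkd2* lower in every LM tumour than in every HR1 tumour, *Lgr5* is above 1 CPM in LM1 only, and the open diamond, the library labelled HR1 replicate 1, is the highest point for *Nkd2*, *Notum*, *Znrf3*, *Tcf7* and *Sp5*.

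The factor genes *Tcf7*, *Lef1* and *Sp5* were all lower in LM9 than in LM1. *Tcf7* was at 232, 215 and 181 CPM in HR1, 163, 179 and 157 in LM1, and 86.7, 82.1 and 82.9 in LM9. LM1 lay just under HR1 and LM9 well under both. *Tcf7* had log2 fold changes of -0.83 ± 0.11 in LM (adjusted p = 0.000616; -0.74 without the library labelled HR1 replicate 1), -1.32 ± 0.13 in LM9 (adjusted p = 0.000207), and -0.99 ± 0.13 in LM9 against LM1 (adjusted p = 0.00224). The LM1 value was -0.33 ± 0.13 (adjusted p = 0.0751), or -0.43 without HR1 replicate 3 (adjusted p = 0.0273).

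*Lef1* was at 20.7, 6.57 and 8.18 CPM in HR1, 32.9, 31.8 and 28.2 in LM1, and 9.55, 8.93 and 7.29 in LM9. The LM1 tumours were above all others, and LM9 lay within the HR1 range. It rose in LM1 by 1.39 ± 0.39 (adjusted p = 0.023), by 2.08 ± 0.19 without the library labelled HR1 replicate 1 (adjusted p = 2.29e-05), with an adjusted p of 0.0504 to 0.0691 without HR1 replicate 3 or any 1 LM1 tumour. In LM9 it was lower than in LM1, at -1.85 ± 0.39 (adjusted p = 0.0133; 0.0509 to 0.0588 without LM1 replicate 1 or LM9 replicate 1 or 3). Its LM value was 0.47 ± 0.34 (adjusted p = 0.29), and 1.15 ± 0.17 (adjusted p = 0.000333) without that library.

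*Sp5*, whose promoter holds the core CTTTGAT shown above, was at 19.6, 4.03 and 3.11 CPM in HR1, 8.57, 7.34 and 8.36 in LM1, and 2.02, 1.37 and 1.58 in LM9. Every LM9 tumour was below every other tumour, and LM1 lay between the library labelled HR1 replicate 1 and the other HR1 tumours. The LM value was -1.28 ± 0.52 (adjusted p = 0.0746) with all tumours and 0.04 ± 0.23 (adjusted p = 0.894) without that library. The value near 0 is a mean of opposite changes, since in that fit LM1 rose (1.19, adjusted p = 0.00395) and LM9 fell. With all tumours LM1 was at -0.135 (adjusted p = 0.883). The LM value passed the test, at -1.63 and -1.68, when HR1 replicate 2 or 3 was left out (adjusted p = 0.0398 and 0.0205). *Sp5* fell in LM9, at -2.42 ± 0.65 against HR1 (adjusted p = 0.0175; -1.10 without the library labelled HR1 replicate 1) and -2.29 ± 0.65 against LM1 (adjusted p = 0.0365), the latter with an adjusted p of 0.0725 to 0.116 without any 1 of the 6 LM tumours and the former with 0.0507 to 0.0632 without any 1 LM9 tumour. *Tcf7l1* also fell in LM, at -0.77 (adjusted p = 0.0267; -0.83 without the library labelled HR1 replicate 1), with -1.06 in LM1 (adjusted p = 0.0179; 0.063 and 0.0682 without LM1 replicate 1 or 3) and -0.47 in LM9 (adjusted p = 0.196). Its LM call was lost without HR1 replicate 3, where the value was -0.46, LM1 replicate 1 or 3, or LM9 replicate 1 or 3 (adjusted p of 0.0562 to 0.11). *Tcf7l2* passed in none of the 4 comparisons with all tumours; both were named after their values were seen.

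**Figure D4:**
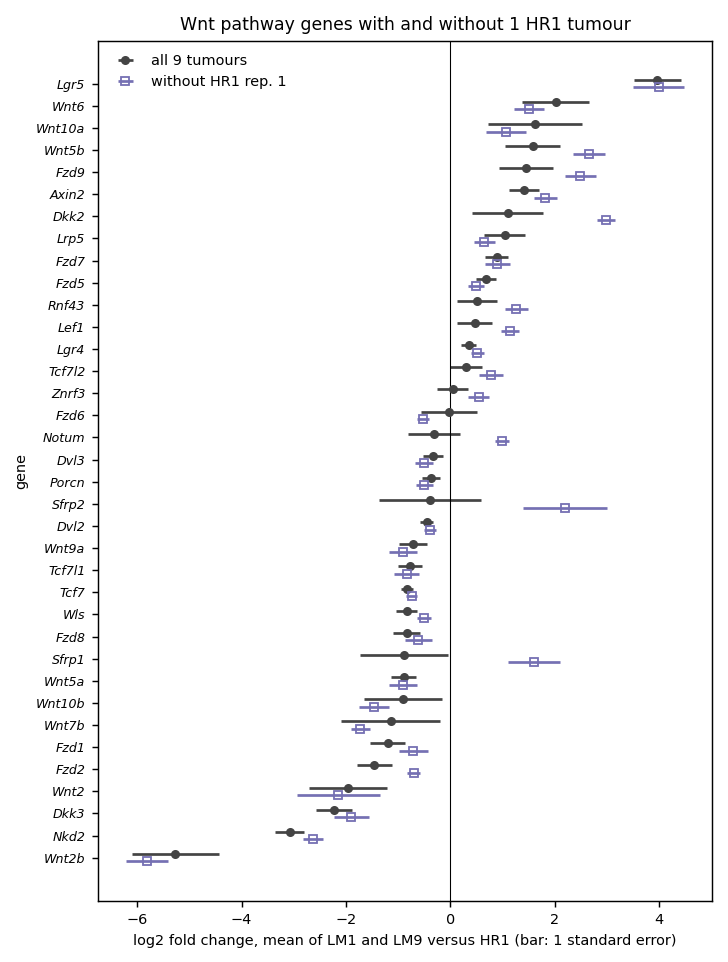
Log2 fold change of LM (the mean of the LM1 and LM9 coefficients) versus HR1, with 1 standard error, for 36 of the 40 pathway genes that passed the test with all 9 tumours (filled circles) or without the library labelled HR1 replicate 1 (open squares). *Notum*, *Sfrp1* and *Sfrp2* cross 0 between the 2 fits of this mean; *Wnt4*, *Wnt7a*, *Sfrp5* and *Fzd10*, with 3 counts or fewer in each tumour of a model in at least 1 of the fits, are left out.

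Between the LM models, 14 of the 52 pathway genes differed, 4 higher in LM9 (*Apc*, *Dvl1*, *Dvl2*, *Lrp5*) and 10 lower (*Fzd7*, *Lef1*, *Lgr4*, *Lgr5*, *Nkd1*, *Sp5*, *Tcf7*, *Wnt4*, *Wnt5a*, *Wnt11*). That is 26.9%, beside 22.0% of all genes, and the median log2 fold change was -0.285 beside 0.00462 over all genes. With counts scaled by library size alone the split was 2 higher and 12 lower. The spread of HR1 enters this fit: without the library labelled HR1 replicate 1, 31 differed (45.5% of all genes). Of the 52 genes, 40 had no overlap between LM9 and LM1 tumours, 15 above (31.9% of all genes) and 25 below (31.1% of all genes), beside 63.0% of all genes in either direction, and 20 genes passed in none of the 4 comparisons with all tumours.

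Further pathway genes, 64 in all and chosen for their known roles, were listed separately, and 57 of them were tested. In LM against HR1, 33 differed, 14 higher and 19 lower (57.9%, beside 43.6% of all genes), and 45 without the library labelled HR1 replicate 1 (78.9%, beside 56.0%). Their median log2 fold change was 0.043, beside -0.0458 over all genes, and 0.244, beside -0.00165, without the library labelled HR1 replicate 1. For LM1 21 differed (36.8%, beside 35.5% of all genes), for LM9 36 (63.2%, beside 42.3%) and for LM9 against LM1 18 (31.6%, beside 22.0%). The largest decreases with a mean of at least 1 CPM included *Cthrc1*, a secreted protein linked to planar polarity signalling, at 0.565, 144 and 121 CPM in HR1 and 0.113 to 0.356 in the 6 LM tumours. Here the library labelled HR1 replicate 1 stood close to the LM tumours, and its log2 fold change was -8.48 ± 1.23 with it (adjusted p = 0.000978) and -9.06 ± 0.23 without it (adjusted p = 3.54e-08).

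*Wif1*, a secreted inhibitor that binds Wnt ligands, was at 6681, 855 and 958 CPM in HR1, 1283, 1204.5 and 1338 in LM1, and 82.0, 77.0 and 24.9 in LM9. LM9 was far below all other tumours, while LM1 exceeded 2 of the 3 HR1 tumours. *Wif1* had log2 fold changes of -3.34 ± 0.65 in LM (adjusted p = 0.00385; -1.69 ± 0.34 without the library labelled HR1 replicate 1) and -4.38 ± 0.88 in LM9 against LM1 (adjusted p = 0.011). *Rspo3*, an R-spondin that binds Lgr receptors, was at 3.99, 0.743 and 27.5 CPM in HR1, 1.70, 1.34 and 1.57 in LM1, and 0.0429, 0.0458 and 0 in LM9, with a log2 fold change of -5.58 ± 0.98 in LM (adjusted p = 0.0025; -5.97 without that library). Without HR1 replicate 3 the *Rspo3* value was -3.39. In LM1 alone neither *Wif1* (-1.15, adjusted p = 0.276) nor *Rspo3* (-2.80, adjusted p = 0.0729) passed with all tumours. *Rspo3* passed there without HR1 replicate 1 (-3.19, adjusted p = 0.0319) and without HR1 replicate 2 (-3.35, adjusted p = 0.0125). *Daam2*, a formin that binds Dishevelled, had a log2 fold change of -5.48 ± 0.79 in LM (adjusted p = 0.000939; -4.73 without the library labelled HR1 replicate 1). *Pygo1*, a nuclear co-activator of beta-catenin, had 1.21 to 4.36 CPM in HR1, 0.815 to 1.18 in LM1 and no count in LM9 (adjusted p = 0.000824 for LM9 against HR1, and 7.75e-05 without that library).

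The increases were led by *Celsr3*, a planar polarity cadherin at or under 0.0225 CPM in HR1 and at 0.526 to 0.944 in LM9 (adjusted p = 0.00124 in LM9, and 0.000856 without the library labelled HR1 replicate 1). *Bcl9*, which links beta-catenin to the Pygo proteins, was at 39.5, 11.7 and 10.7 CPM in HR1, 244, 252 and 198 in LM1, and 179.9, 125 and 149 in LM9. All 6 LM tumours were above all 3 HR1 tumours. *Bcl9* rose by 3.18 ± 0.47 (adjusted p = 0.00104) and by 4.07 ± 0.20 without the library labelled HR1 replicate 1 (adjusted p = 4.64e-07). *Prickle3*, *Celsr1* and *Ror1*, which act in planar polarity or as a Wnt5a receptor, rose by 1.51, 1.24 and 1.22 (adjusted p = 0.00833, 0.00711 and 0.00887), or 2.04, 1.12 and 1.5 without the library labelled HR1 replicate 1.

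Genes described as direct beta-catenin targets in other tissues formed a list of 40, of which 35 were tested. In LM against HR1, 19 differed, 11 higher and 8 lower (54.3%, beside 43.6% of all genes), and 23 without the library labelled HR1 replicate 1 (65.7%, beside 56.0%). Their median log2 fold change was 0.184, or 0.140 in that fit, beside the same medians of all genes. *Ccnd1*, the cell cycle gene for cyclin D1, was at 356, 329 and 419 CPM in HR1, 989.6, 1059.9 and 931 in LM1, and 944, 1013 and 984 in LM9. The LM models overlapped each other and lay well above HR1, and *Ccnd1* rose by 1.42 ± 0.13 (adjusted p = 0.000111; 1.41 without that library). *Myc*, a growth-promoting transcription factor, was at 56.2, 80.1 and 96.2 CPM in HR1, 192, 216 and 157 in LM1, and 253, 298 and 209.9 in LM9, and rose by 1.5 ± 0.21 (adjusted p = 0.000795; 1.32 without that library).

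*Sox9*, a factor of progenitor cells in several epithelia, was at 17.4, 10.3 and 6.84 CPM in HR1, 162, 253 and 103 in LM1, and 333, 395 and 206 in LM9. It rose by 4.33 ± 0.46 (adjusted p = 0.000254; 4.76 without the library labelled HR1 replicate 1). *Fst*, which encodes the activin antagonist follistatin, rose by 2.27 ± 0.26 (adjusted p = 0.000332; 2.57 without that library), from 46.6 to 112 CPM in HR1 to 321 to 463 in LM. *Prox1*, a homeobox factor, had no count in HR1, 0.584 to 0.861 CPM in LM1 and 0 to 0.0675 in LM9.

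Other targets fell. *Ccn2*, a matricellular protein, was at 179, 64.8 and 108 CPM in HR1, 25.0, 23.6 and 20.7 in LM1, and 16.8, 8.10 and 4.82 in LM9, with a log2 fold change of -2.95 ± 0.39 (adjusted p = 0.000641; -2.51 without the library labelled HR1 replicate 1). *Msx2*, a homeobox factor, was at 2.23 to 4.19 CPM in HR1 and 5.07 to 6.68 in LM1, with 1 count in all in LM9. It fell in LM9 only. Its LM1 value against HR1 was 0.973 (adjusted p = 0.105), or 1.26 without the library labelled HR1 replicate 1 (adjusted p = 0.0122). The LM9 ratio to LM1 was 815-fold lower with a 95% counting interval of 146 to 32200. *Tbx3*, which is needed for mammary bud formation, was at 0.898, 0.923 and 2.08 CPM in HR1, 0.420, 0.498 and 0.533 in LM1, and 0.0429, 0 and 0 in LM9, with a log2 fold change of -3.81 ± 0.60 in LM (adjusted p = 0.00138; -4.02 without the library labelled HR1 replicate 1). *Cldn1*, a tight junction protein, and *Bambi*, a pseudoreceptor of the TGF-beta family, had log2 fold changes of -2.75 and -2.47 (adjusted p = 0.00873 and 0.00401), or -3.24 and -1.48 without that library (adjusted p = 0.000166 and 0.00321).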

How the data were processed

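RNA-seq was analysed for 9 tumours, 3 per model, grouped by the sample labels. The tables deposited by the authors hold whole-number counts per Entrez gene and tumour. According to the study's methods, single-end reads of stranded mRNA libraries were aligned to mm10 with STAR, and 5′ ends falling in a union of exons were counted with qCount of QuasR; versions are not given in the sources used here. The counts were not normalized, and each listed gene reached 7 or more counts in at least 3 tumours. Symbols and coordinates came from RefSeq (GRCm38.p6, 14085 of 14108 genes matched) and exon lengths and overlaps from GENCODE M21 on GRCm38, the build of mm10; promoter windows and sequences are those of RefSeq for GRCm38.p6.

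Counts were tested with the robust quasi-likelihood F-test of edgeR 4.0.16 in R 4.3.3, with TMM factors, edgeR's filter by expression, 1 fit over the 3 models and Benjamini-Hochberg adjustment over 14086 genes at 0.05. LM versus HR1 is the mean of the LM1 and LM9 coefficients. A fold against a model without counts used 3 counts per library, and ratios with few counts have exact 95% intervals, which cover counting error only. Nothing in the labels says that tumours came from separate animals or cultures, so p-values measure the spread between these tumours. CPM was also compared by exact permutation tests (scipy 1.17.1). Values are per tumour or fold changes ± SE.

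Alternatives were RLE factors, library size only, other low-count filters, DESeq2 1.42.0, limma-voom (limma 3.58.1), only the tumours compared, the replicate number as a block, and each tumour left out. Named genes were the up to 12 largest changes of pathway genes at 1 CPM or more in LM versus HR1 and in LM9 versus LM1, the 10 feedback genes, 5 core genes, and the up to 5 largest changes each way of the further lists; other names were added after values were seen. The genes and lists were chosen with earlier results of these data known. Tables were handled with Python 3.11.15, pandas 2.3.3 and numpy 2.4.6 and drawn with matplotlib 3.10.9.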

Additional observations from a re-analysis of the deposited data

Results flagged for a closer look

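LM9 and LM1, compared with the same HR1 tumours, differed from each other in the edgeR test for 19 of the 49 named genes (22.0% of all genes did), a count set in part by the choice, since 12 were named as the largest such changes, and these are given as LM9 minus LM1 log2 fold changes. Among the ligands the values were -3.59 for *Wnt4* (3 counts in all LM9 libraries against 38 in LM1, 13.0-fold lower with a 95% counting interval of 4.13 to 65.9), -2.25 for *Wnt11* and -1.38 for *Wnt5a*. Among the receptors they were -4.64 for *Lgr5*, -0.96 for *Fzd7*, -0.898 for *Lgr4* and 1.5 for *Lrp5*. For the cytoplasmic and factor genes they were -2.29 for *Sp5*, -1.85 for *Lef1*, -1.27 for *Nkd1*, -0.985 for *Tcf7* and 1.04 for *Apc*. In the further lists they were -5.56 for *Rspo3*, -8.45 for *Pygo1*, -4.38 for *Wif1*, 3.08 for *Celsr3*, -4.78 for *Tbx3*, -9.19 for *Msx2* and -4.13 for *Prox1*. For *Wnt4*, *Rspo3*, *Pygo1*, *Tbx3*, *Msx2* and *Prox1* the LM9 libraries held between 0 and 5 counts in all, and for *Celsr3* the LM1 libraries held 10, so these fitted values depend on the prior count and are no bounds. Leaving out 1 of the 6 LM tumours ended the call of *Lrp5*, *Sp5* and *Rspo3* whichever tumour it was. The call of *Wnt4* was lost in 5 of the 9 fits that left out 1 tumour (adjusted p of 0.0536 to 0.114), namely without LM1 replicate 2 or 3 or any LM9 tumour. *Celsr3* (0.0548 to 0.0661) and *Prox1* (0.0502 to 0.0716) lost it without LM1 replicate 1 or 3 or LM9 replicate 1, and *Tbx3* was at -7.34 without LM9 replicate 1. The calls of *Apc*, *Fzd7*, *Lef1*, *Nkd1* and *Wnt5a* were also lost in 1 to 5 of these fits, at adjusted p of 0.0502 to 0.0771. The epithelial marker sum moved with the same comparison, at 158 to 182 CPM in LM1 and 15.1 to 18.9 in LM9, of which *Krt14* made up 152 to 175 and 12.2 to 15.4; its part in these values was not tested.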

How the results depend on the processing

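The alternatives changed the counts of calls as follows. With only the tumours compared in the fit, 12 pathway genes differed in LM9 against HR1 (31.2% of all genes did) and 36 in LM9 against LM1 (56.3% of all genes); of the further pathway genes 13 differed in LM1 against HR1 (22% of all genes) and 36 in LM9 against LM1, and of the targets 8 and 23. When each tumour was left out in turn, pathway genes called ran from 16 to 37 in LM against HR1, 11 to 33 in LM1, 13 to 31 in LM9 and 7 to 31 in LM9 against LM1; further pathway genes from 28 to 45, 12 to 33, 22 to 45 and 7 to 32; and targets from 17 to 23, 8 to 19, 17 to 23 and 4 to 20. Over all genes the share called ran in these fits from 35% to 56%, 22.1% to 52.8%, 26.7% to 55.7% and 8.16% to 45.5%. The other alternatives kept each of these counts within 1.5 times. Relative to TMM, other scalings moved the median of all genes by at most 0.0747 on the log2 scale, and no called pathway gene changed sign; limma-voom split the LM calls 12 higher and 11 lower. Leaving out 1 tumour, the LM value of *Sp5* ran from -1.68 to 0.040, that of *Nkd1* from -0.30 to 0.39, that of *Notum* from -0.71 to 0.99 and that of *Znrf3* from -0.17 to 0.55, with *Sp5*, *Nkd1* and *Notum* above 0 only without HR1 replicate 1 and *Znrf3* below 0 without HR1 replicate 2 or 3, LM1 replicate 2 or LM9 replicate 2. The value of *Nkd1* was 0.018 with library size only and 0.045 with limma-voom, and that of *Notum* 0.17 with limma-voom. Without HR1 replicate 1 both the fold and the spread of HR1 change; the other causes were not tested. With the replicate number as a block, 17, 14, 21 and 11 pathway genes were called in the 4 comparisons (37.2%, 29.8%, 36% and 16.3% of all genes), and *Nkd1* stood at 0.025 and *Notum* at 0.066 on the log2 scale. Between models, deviations from the model means had correlations of -0.117 to 0.162 for tumours with the same number and -0.198 to 0.203 for others. With 3 tumours per model these values cannot show whether tumours of the same number shared a batch. At this depth 3 counts equal 0.0630 to 0.0997 CPM, and *Fzd10*, *Lgr5*, *Sfrp5*, *Wnt2b*, *Wnt4* and *Wnt7a* have at least 1 library at or under it.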
